A study of Mus musculus with 11 samples.

Results

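Genes of the choroid plexus epithelium and of the cilium were followed in Tmem119-positive cells sorted as microglia from the cerebrum of aged C57BL/6 mice. The set held 68 genes of 14739 in the table: 12 secretory genes of the choroid plexus and 56 cilium genes. A total of 18 genes were taken by name, and the others by the symbols of cilium gene families (Cfap, Ift, Bbs, Dnah, Dnali, Rsph, Tekt and Tctn followed by a number). All 68 had a mean of at least 10 normalized counts over the 11 libraries, and so none was lost to the filter on low values that kept 13223 genes for testing. A normalized count is the number of reads assigned to a gene divided by the size factor of its library.

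The choroid plexus is a fold of epithelium in the brain ventricles that makes cerebrospinal fluid and secretes carrier proteins into it. Its cells carry tufts of cilia, and the neighbouring ependyma carries motile cilia that move the fluid. A cilium is built around microtubule doublets, motile ones carry dynein arms and radial spokes, and the intraflagellar transport machinery carries cargo along it. Microglia are brain macrophages and are not known as a source of either programme.

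Bulk RNA sequencing compared 4 genotypes: 3 libraries from Csf1r+/- mice (Csf1r_het), 3 from Csf2+/- mice (Csf2het), 2 from Csf1r+/-; Csf2+/- mice (Dhet) and 3 from wild-type mice (WT). Csf1r encodes the CSF-1 receptor, on which microglia depend, and Csf2 encodes the cytokine GM-CSF. Mice were 21 months old, apart from Csf1r_het replicate 1 at 20 months and Csf1r_het replicate 2 and Dhet replicate 2 at 24 months. The labels do not state a sex, and say nothing on whether the alleles were constitutive. Libraries held 21037819 to 53081638 reads, and 1 read was worth 0.479 to 1.48 normalized counts. Csf1r_het replicate 2 stood apart with 58.8% of its reads in haemoglobin genes, against 16.1% to 40.2% in the other 10 libraries, and with 15.6% of genes at 0, against 4.98% to 9.88%. Dhet replicate 2 was the only library with Y-linked Ddx3y at 717 normalized counts and Xist at 4.02, while the other 10 held no more than 16.3 of Ddx3y and 3011 or more of Xist. The 8 defining microglial markers were measured in every library, with Tmem119 between 15711 and 16736 normalized counts in Csf1r_het, 18805 and 31939 in Csf2het, 23328 and 30741 in Dhet, and 5432 and 19084 in WT. Their summed normalized count was lowest in WT replicate 2, at 153523, against at least 224669 in every other library. The 8 include Csf1r itself.

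Sequence upstream of the start is shown for 3 cilium genes, since it is where members whose levels move together could share a motif. The first is Dynlrb2, a dynein light chain that passed the test in 3 comparisons. The others are Rsph9, a radial spoke head protein that passed in 1, and Pifo, which acts at the cilium base. RefSeq promoter entries (GRCm38.p6) matched 51 of the 68 members, 48 of them within 1000 bases of the deposited gene start. The motif GTTGCC, the half-site of RFX factors that bind upstream of cilium genes, was searched on both strands (reverse GGCAAC) and is in capitals. The windows begin 120 bases before the RefSeq start and end 42 bases before it for Dynlrb2, 17 for Rsph9 and 1 for Pifo, where the deposited gene begins.
Dynlrb2, chr8:116504895-116504973, forward strand: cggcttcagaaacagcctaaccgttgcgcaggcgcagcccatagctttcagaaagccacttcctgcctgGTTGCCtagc
Rsph9, chr17:46144217-46144320, reverse strand: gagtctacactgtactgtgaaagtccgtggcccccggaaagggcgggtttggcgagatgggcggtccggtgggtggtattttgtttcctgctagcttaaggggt
Pifo, chr3:106014647-106014766, reverse strand: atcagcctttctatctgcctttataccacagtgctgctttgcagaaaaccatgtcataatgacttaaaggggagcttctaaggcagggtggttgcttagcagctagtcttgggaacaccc
The Dynlrb2 match begins 51 bases before the start, and Rsph9 and Pifo hold 0 matches in the full 300-base entry. The half-site stood in 18 of 45 cilium entries (40% of them) and in 2 of 6 secretory entries, against 12.5% of all 32851 mouse promoter entries. The forkhead motif GTAAACA (reverse TGTTTAC) stood in 2 of 45 cilium and 0 of 6 secretory entries, against 3.65% of all. The OTX motif TAATCC (reverse GGATTA) stood in 1 of 45 and 0 of 6, against 7.06% of all. None of the 3 motifs contains another, and a match describes the sequence only.

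Ttr, which encodes transthyretin, the thyroid hormone and retinol carrier that the choroid plexus secretes, was the leading member. It reached 1119760, 781961 and 1409440 normalized counts in Csf1r_het, 900688, 730110 and 1103860 in Csf2het, 226138 and 438300 in Dhet, and 266811, 627562 and 337450 in WT. Every single-heterozygote library lay above every WT library, and both Dhet libraries lay below every single-heterozygote library and overlapped WT. Ttr ranked between 4 and 16 among all genes by normalized count in the 11 libraries, in cells sorted for a microglial surface protein. It took 1.20% to 4.03% of the reads in Csf1r_het, 2.28% to 2.87% in Csf2het, 0.713% to 1.80% in Dhet and 1.03% to 1.41% in WT. Of the reads outside haemoglobin genes, its share was 2.91% to 5.66% in Csf1r_het, 3.40% to 4.05% in Csf2het, 0.963% to 2.31% in Dhet and 1.23% to 1.97% in WT. In bulk libraries, fewer cells of a type and less RNA per cell cannot be told apart.

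The log2 fold change of Ttr was 1.48 ± 1.08 (SE) for Csf1r_het against WT and 1.23 ± 1.08 for Csf2het against WT, neither past the test (limma adjusted p = 0.52 and 0.625). All log2 fold changes are on the scale log2(normalized count + 1), which understates changes of low genes. The SE of Ttr is wide because limma draws each gene's spread toward that of genes of like abundance: the SD it used was 1.32, while the libraries of a group varied around their own mean with an SD of 0.509 (log2, 7 residual degrees of freedom). On the recovered reads, DESeq2 gave an adjusted p of 0.0158 for Csf1r_het and 0.0558 for Csf2het, and edgeR gave 0.234 and 0.288. For Dhet against WT the log2 fold change was -0.29 ± 1.20 (limma adjusted p = 0.953).

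Folr1, the folate receptor that carries folate toward the cerebrospinal fluid (ENSMUSG00000001827.12, mm10 chr7:101858331-101870788, reverse strand), had 12613, 7222 and 12371 normalized counts in Csf1r_het and 7305, 8750 and 5635 in Csf2het. It had 2386 and 4339 in Dhet, and 4272, 1567 and 3610 in WT. All 6 single-heterozygote libraries exceeded the 5 others. Folr1 rose in Csf1r_het against WT by a log2 fold change of 1.85 ± 0.41 (SE, limma adjusted p = 0.0471), while the 1.30 ± 0.41 in Csf2het did not pass (adjusted p = 0.106). The Csf1r_het call was lost with edgeR (adjusted p = 0.065), and it held in 1 of the 11 fits that left out a library, the one without WT replicate 2, with log2 fold changes of 1.41 to 2.13 over the 11.

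Sostdc1, a secreted antagonist of BMP and Wnt signals, had 5444, 3593 and 6453 normalized counts in Csf1r_het, 4569, 4406 and 3092 in Csf2het, 1314 and 4114 in Dhet, and 2098, 1334 and 2304 in WT. Prlr, the prolactin receptor, had 5319, 2700 and 4885 in Csf1r_het, 4989, 6876 and 3070 in Csf2het, 1843 and 1746 in Dhet, and 2589, 1710 and 2500 in WT. For both genes all single-heterozygote libraries lay above all WT libraries, and for Prlr also above both Dhet libraries. Neither passed against WT: the log2 fold changes of Sostdc1 were 1.43 ± 0.41 in Csf1r_het and 1.09 ± 0.41 in Csf2het (limma adjusted p = 0.116 and 0.183), and those of Prlr were 0.89 ± 0.36 and 1.08 ± 0.36 (adjusted p = 0.247 and 0.125). Kcnj13, the apical potassium channel of the epithelium, had 24784, 14034 and 19317 normalized counts in Csf1r_het, 16375, 19728 and 9520 in Csf2het, 3977 and 11032 in Dhet, and 9105, 1443 and 9993 in WT. Its Csf1r_het libraries did not overlap WT, while Csf2het replicate 3 lay inside the WT range (limma adjusted p = 0.179 for Csf1r_het and 0.246 for Csf2het).

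For 6 other secretory genes each heterozygous group overlapped WT. Enpp2, or autotaxin, a secreted enzyme that makes lysophosphatidic acid, had 161850, 91313 and 148779 normalized counts in Csf1r_het, 174596, 162585 and 93194 in Csf2het, 50250 and 180661 in Dhet, and 146601, 65409 and 148060 in WT. Its log2 fold changes were 0.21 ± 0.65 in Csf1r_het and 0.30 ± 0.65 in Csf2het, with no order among the groups. Klotho (Kl), shed into the fluid, had a mean of 5225 ± 752 normalized counts in Csf1r_het, 5202 ± 2017 in Csf2het, 3543 ± 2439 in Dhet and 3975 ± 3187 in WT (SD, n = 2 for Dhet and 3 for the other groups). The homeobox factor Otx2 averaged 1294 ± 617 in Csf1r_het, 1792 ± 679 in Csf2het, 977 ± 606 in Dhet and 899 ± 506 in WT. Clic6, of the chloride intracellular channel family, the water channel Aqp1 and the bicarbonate cotransporter Slc4a5 likewise overlapped WT in each comparison, and Aqp1 had the only negative log2 fold change of the secretory members in Csf1r_het (-0.60 ± 0.83). Klotho, Otx2, Enpp2, Clic6, Aqp1 and Slc4a5 had limma adjusted p of at least 0.345 in each of the 3 comparisons with WT.

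Sbspon, a gene for a protein with somatomedin B and thrombospondin domains, was listed because of its rise, so its values are a description. It had 182, 264 and 197 normalized counts in Csf1r_het, 139, 177 and 123 in Csf2het, 143 and 160 in Dhet, and 14.8, 0.971 and 34.4 in WT. It differs from the other secretory members in that both Dhet libraries also lay above all WT libraries. Per kilobase of the longest annotated transcript, the order of mean levels over the 11 libraries was Ttr with 608775 normalized counts per kb, Enpp2 with 41806, Kcnj13 with 9972, Folr1 with 4852 and Sostdc1 with 1976. The order continued with Clic6 at 946, Kl at 784, Otx2 at 488, Prlr at 351, Aqp1 at 190, Slc4a5 at 168.9 and Sbspon at 47.5. The lowest Ttr library was above the highest Enpp2 library, and for all other neighbours in this order the ranges over libraries overlapped.

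**Figure D1:**
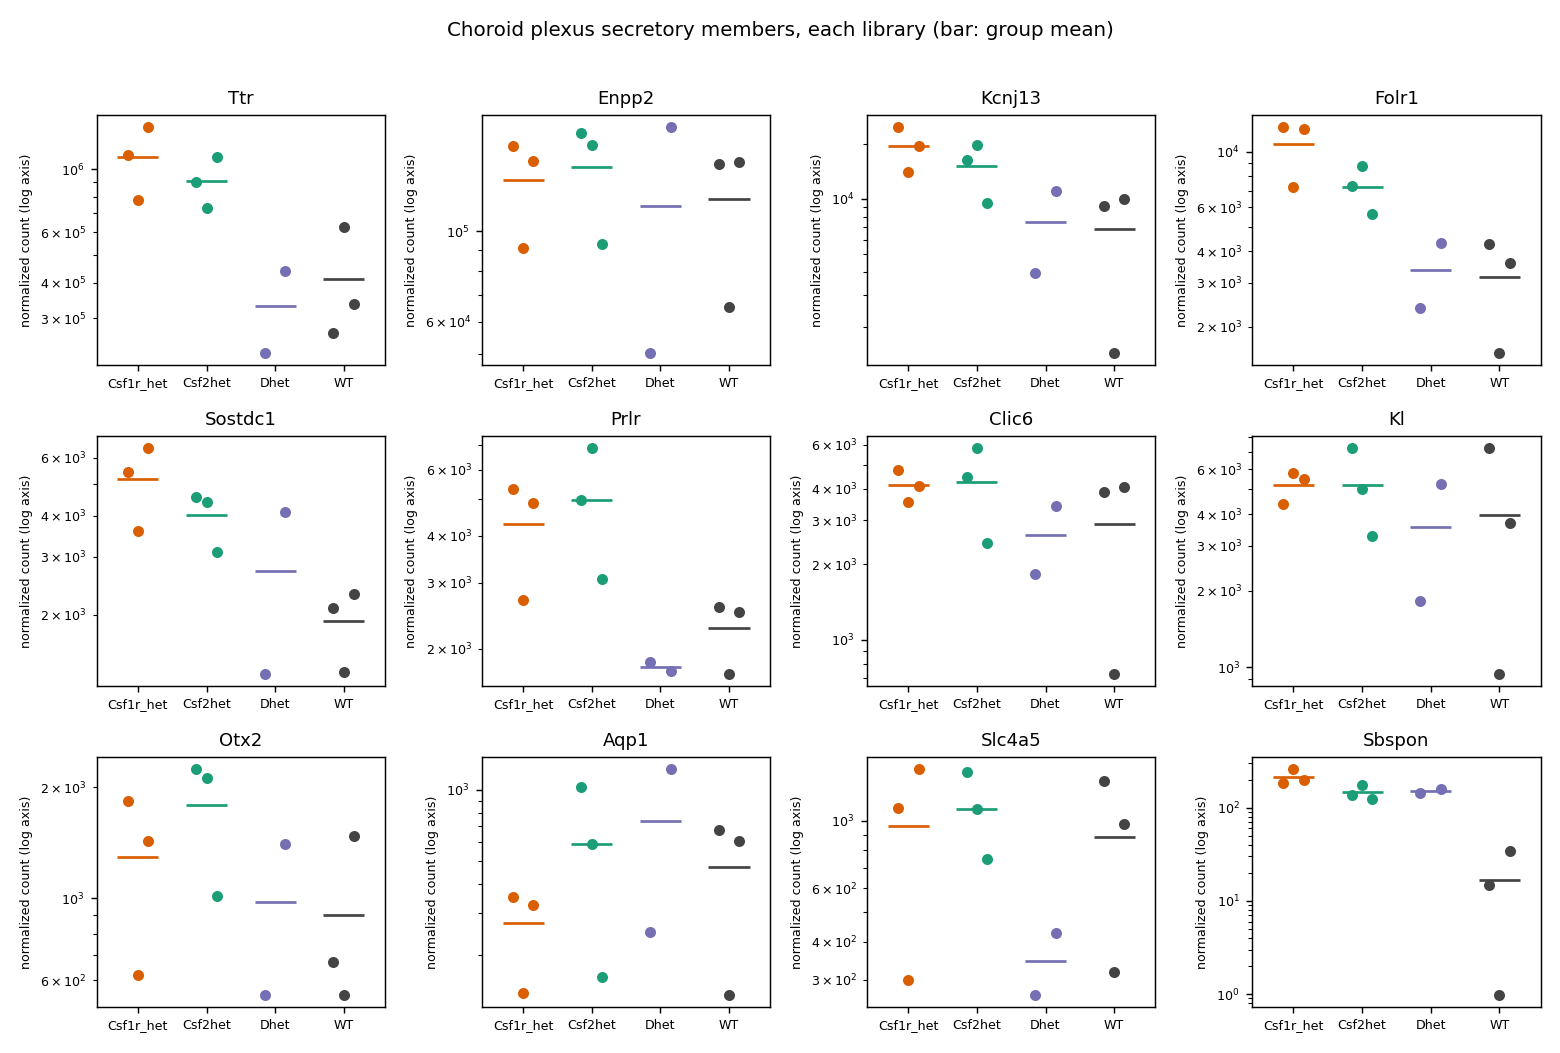
Normalized counts (log axis) of the 12 secretory members in each library, with a bar at the group mean, for Csf1r_het, Csf2het, Dhet and WT. Ttr, Folr1, Sostdc1, Prlr and Sbspon had all 6 single-heterozygote libraries above all 3 WT libraries, and WT replicate 2 is the low WT point of 8 panels that is also the lowest of all 11 libraries.

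A single library set much of the WT spread. WT replicate 2 held the lowest value of all 11 libraries in 8 of the 12 secretory members, and Dhet replicate 1 in the remaining 4. Yet WT replicate 2 had the highest Ttr of the WT libraries. With WT replicate 2 and Csf1r_het replicate 2 both left out, the median log2 fold change of the secretory members was 0.85 in Csf1r_het, 0.68 in Csf2het and -0.40 in Dhet, against 0.88, 1.07 and 0.13 with all libraries. That choice of libraries was made after seeing the data.

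The cilium members were far lower than Ttr. Per kilobase, the highest were Rsph9 with 1506 normalized counts per kb over all libraries, Dynlrb2 with 1406 and Ift20, an intraflagellar transport protein, with 1013, and the lowest was the axonemal dynein heavy chain Dnah7a with 1.93. Of the 56 members, 9 stood at 0 in at least 1 library, and Csf1r_het replicate 2 alone had 8 members at 0. Dynlrb2 (ENSMUSG00000034467.7, mm10 chr8:116504974-116515915, forward strand) had 1418, 813 and 1178 normalized counts in Csf1r_het, 1156, 880 and 1202 in Csf2het, 216 and 370 in Dhet, and 202, 442 and 273 in WT. The lowest single-heterozygote library was well above the highest of the 5 others, and the Dhet and WT ranges overlapped. Dynlrb2 rose in Csf1r_het by a log2 fold change of 1.93 ± 0.40 (SE, limma adjusted p = 0.0391), or 3.81-fold, and in Csf2het by 1.88 ± 0.40 (adjusted p = 0.0229), or 3.68-fold. In Dhet against WT its log2 fold change was -0.03 ± 0.45 (limma adjusted p = 0.988). The Csf1r_het call held in 3 of 11 fits that left out a library, those without Dhet replicate 1, Dhet replicate 2 or WT replicate 2, with log2 fold changes of 1.67 to 2.23. The Csf2het call held in 7 of 11 and was lost without any 1 of the Csf2het libraries or WT replicate 1, with log2 fold changes of 1.62 to 2.18.

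Rsph9, a radial spoke head protein, had 2938, 1108 and 3022 normalized counts in Csf1r_het, 1663, 2327 and 1581 in Csf2het, 383 and 826 in Dhet, and 677, 377 and 1097 in WT. All 6 single-heterozygote libraries lay above all 3 WT libraries, though Csf1r_het replicate 2 exceeded WT replicate 3 by little. Neither difference passed, with log2 fold changes of 1.71 ± 0.49 in Csf1r_het and 1.48 ± 0.49 in Csf2het (limma adjusted p = 0.111 and 0.122). Foxj1, the transcription factor that switches on motile ciliogenesis, was low in every library, at 76.6, 123 and 64.2 normalized counts in Csf1r_het, 96.0, 156 and 104 in Csf2het, 35.3 and 121 in Dhet, and 88.6, 10.7 and 82.6 in WT. The Csf2het libraries all lay above the WT libraries, narrowly over WT replicates 1 and 3, while Csf1r_het and Dhet overlapped WT. No difference passed (limma adjusted p = 0.639 for Csf1r_het, 0.483 for Csf2het and 0.875 for Dhet).

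Of the intraflagellar transport members, Ift74 had 558, 713 and 650 normalized counts in Csf1r_het, 632, 655 and 703 in Csf2het, 128 and 573 in Dhet, and 209, 121 and 262 in WT. Ift43 had 536, 185 and 490 in Csf1r_het, 384, 522 and 492 in Csf2het, 143 and 251 in Dhet, and 127, 71.8 and 157 in WT. Both had all single-heterozygote libraries above all WT libraries, with limma adjusted p of 0.128 and 0.164 in Csf1r_het and of 0.0816 and 0.0642 in Csf2het. Rsph10b, a radial spoke gene, had 248, 302 and 194 in Csf1r_het and 256, 221 and 213 in Csf2het. It had 134 and 110 in Dhet, and 10.3, 77.6 and 92.9 in WT. Whether it shares reads with any like gene was not tested. In Rsph10b every heterozygous library was above every WT library, and neither single-heterozygote difference passed (limma adjusted p = 0.142 and 0.114).

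The one member called lower against WT was Cfap43, needed for the axonemes of flagella and motile cilia (ENSMUSG00000044948.16, mm10 chr19:47737561-47919299, reverse strand). It had 131, 648 and 203 normalized counts in Csf1r_het, 90.7, 114 and 94.0 in Csf2het, 414 and 217 in Dhet, and 706, 632 and 721 in WT. The Csf2het libraries were lowest and close together, while Csf1r_het replicate 2 lay inside the WT range. Cfap43 fell by 2.78 ± 0.58 on the log2 scale in Csf2het against WT (SE, limma adjusted p = 0.0203), with the call kept by edgeR (adjusted p = 0.0264) and DESeq2 (0.00015). Leaving out any 1 of the Csf2het libraries or WT replicate 1 ended that call, with an adjusted p of at most 0.0905 and log2 fold changes of -2.88 to -2.71.

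Pifo, Fam92a, Meig1 and Ttll4 were listed because of their rises, so their values are a description and nothing is read from their share in counts of called members. Pifo, which acts at the cilium base, had 1108, 941 and 849 normalized counts in Csf1r_het, 901, 817 and 828 in Csf2het, 303 and 812 in Dhet, and 149, 64.1 and 298 in WT. Fam92a, a membrane-binding protein of the basal body, had 721, 879 and 684 in Csf1r_het, 442, 723 and 600 in Csf2het, 291 and 429 in Dhet, and 142, 69.9 and 239 in WT. In both genes the groups were ordered single heterozygotes, Dhet, WT by their means, and every heterozygous library lay above every WT library. Meig1, needed in mouse sperm formation, had 151, 243 and 114 in Csf1r_het, 150, 248 and 296 in Csf2het, 91.6 and 90.3 in Dhet, and 43.0, 31.1 and 19.5 in WT. Ttll4, an enzyme that adds glutamate to tubulin and other proteins, had 97.7, 110 and 124 in Csf1r_het, 224, 232 and 260 in Csf2het, 108 and 92.0 in Dhet, and 41.1, 8.74 and 62.0 in WT. For Ttll4 the Csf2het libraries all lay above the Csf1r_het libraries.

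**Figure D2:**
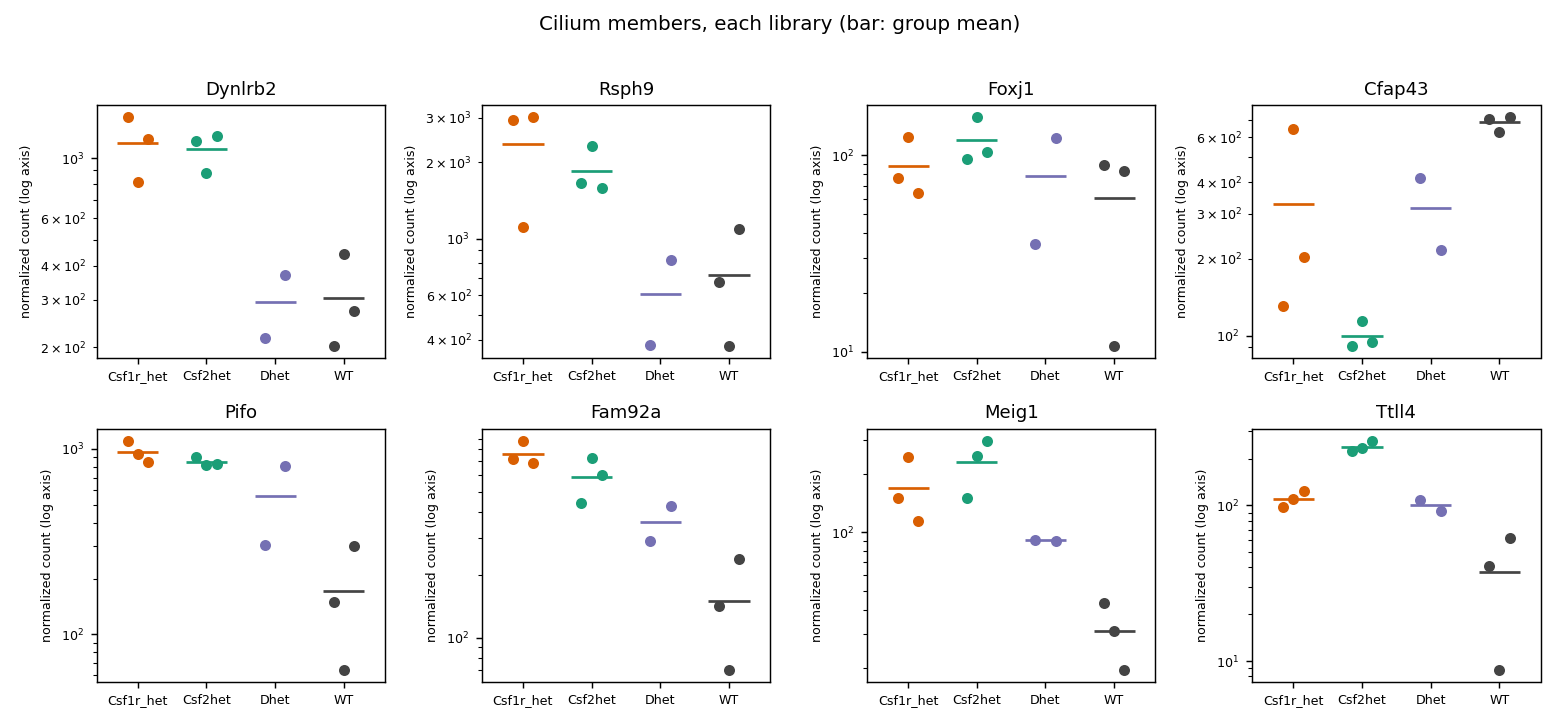
Normalized counts (log axis) of 8 cilium members in each library, with a bar at the group mean, for Csf1r_het, Csf2het, Dhet and WT. Dynlrb2, Rsph9, Pifo, Fam92a, Meig1 and Ttll4 had all 6 single-heterozygote libraries above all WT libraries, Foxj1 stayed at 156 or below in every library, and Cfap43 had its highest group mean in WT.

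Counted over the whole set, Csf1r_het against WT had 5 members higher at a limma adjusted p under 0.05 and 0 lower, where 0.431% of all 13223 tested genes were called higher and 0.885% lower. The 5 were Folr1 and Sbspon among the secretory members and Dynlrb2, Pifo and Fam92a among the cilium members, and 3 of these (Sbspon, Pifo and Fam92a) had been listed for their rise. The limma count at an unadjusted p under 0.05 was 19 of 68, against 2139 of all 13223 genes. EdgeR called 3 members and DESeq2 12, each of them higher, against 39 and 323 of all genes called higher. The count was 0 without any 1 of the 3 Csf1r_het libraries, the 3 Csf2het libraries or WT replicate 1, and 3 without Dhet replicate 1, Dhet replicate 2 or WT replicate 3. It was also 0 with age as a covariate, with only Csf1r_het and WT libraries in the fit, and with scaling without haemoglobin genes. In that last fit 0 of all 13223 genes were called. Scaling without haemoglobin genes divided each library's normalized counts by their total outside haemoglobin genes, so that total counts took the place of size factors. It cannot separate the part of haemoglobin from that of the change of scaling method.

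Csf2het against WT had 6 members higher, with 0.809% of all genes called higher, and 1 lower, Cfap43, with 2.84% of all genes called lower. The 6 were Dynlrb2 and the 5 listed for their rise, Sbspon, Pifo, Fam92a, Meig1 and Ttll4, so Dynlrb2 was the single higher call outside that list. At an unadjusted p under 0.05 limma counted 19 members, against 2287 of all genes. EdgeR called 4 members higher and 1 lower, against 104 and 321 of all genes, and DESeq2 10 higher and 1 lower, against 346 and 784. Without any 1 of the Csf2het libraries or WT replicate 1 the total of 7 dropped to 0, without Csf1r_het replicate 1 it was 3, and without Csf1r_het replicate 3 or WT replicate 2 it was 4. Scaling without haemoglobin genes left 2, Dynlrb2 and Cfap43, and a fit with only Csf2het and WT libraries left 1, Cfap43.

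Dhet against WT had 0 members called by limma, where 0.0303% of all genes were called higher and 0.499% lower, or 0.529% in either direction, with 4 members and 1329 of all genes at an unadjusted p under 0.05. EdgeR called 0 members, against 2 of all genes higher and 23 lower. DESeq2 called 1 higher, Sbspon, against 60 of all genes higher and 276 lower. The 3 cilium members outside the list with the lowest p were Ift172 at a log2 fold change of -1.50 ± 0.61, Ift80 at 1.40 ± 0.74 and Bbs9, of the BBSome that sorts ciliary membrane proteins, at 0.89 ± 0.50 (limma adjusted p = 0.449, 0.552 and 0.579). With 2 Dhet libraries, the spread within that group rests on a single pair. The pair also differs in age, at 21 and 24 months, and only replicate 2 had high Ddx3y and low Xist. No fit for Dhet or for the interaction included sex.

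The 3 comparisons share the WT libraries, and their values stand side by side without a test between them. The median log2 fold change of the secretory members was 0.88 in Csf1r_het, 1.07 in Csf2het and 0.13 in Dhet, and that of the cilium members 0.82, 0.72 and 0.40. Over all tested genes the medians were -0.12, -0.02 and 0.02. Of the 12 secretory members 11 had a positive log2 fold change in Csf1r_het, 12 in Csf2het and 8 in Dhet, and of the 56 cilium members 44, 43 and 35 did. Without the 5 genes listed for their rise, the secretory medians were 0.87, 1.05 and 0.10 and the cilium medians 0.79, 0.70 and 0.29.

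All Csf1r_het libraries exceeded all WT libraries in 6 of 12 secretory and 18 of 56 cilium members, where 8.61% of all genes did so. The Csf2het libraries did in 5 of 12 and 18 of 56, against 11% of all genes, and the Dhet libraries in 1 of 12 and 10 of 56, against 13.5%. These counts include the 5 genes listed for their rise, and without them they were 5 of 11 and 14 of 52 in Csf1r_het, 4 of 11 and 14 of 52 in Csf2het, and 0 of 11 and 6 of 52 in Dhet. Both single heterozygotes exceeded WT in 5 of 12 secretory and 10 of 56 cilium members, against 649 of all 13223 genes. These include the 5 genes listed for their rise, which all did so. The others were Ttr, Folr1, Sostdc1 and Prlr among the secretory members. Among the cilium members they were Dynlrb2, Rsph9, Rsph10b, Ift43, Ift74 and Bbs9. In the other direction, 0 secretory members had all libraries of a heterozygous group below all WT libraries. Of the cilium members, 1 did in Csf1r_het (Ift172), 2 in Csf2het (Cfap43 and Rsph3a) and 2 in Dhet (Ift172 and Cfap43). The shares of all genes in that direction were 12.8%, 14.3% and 12.6%.

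**Figure D3:**
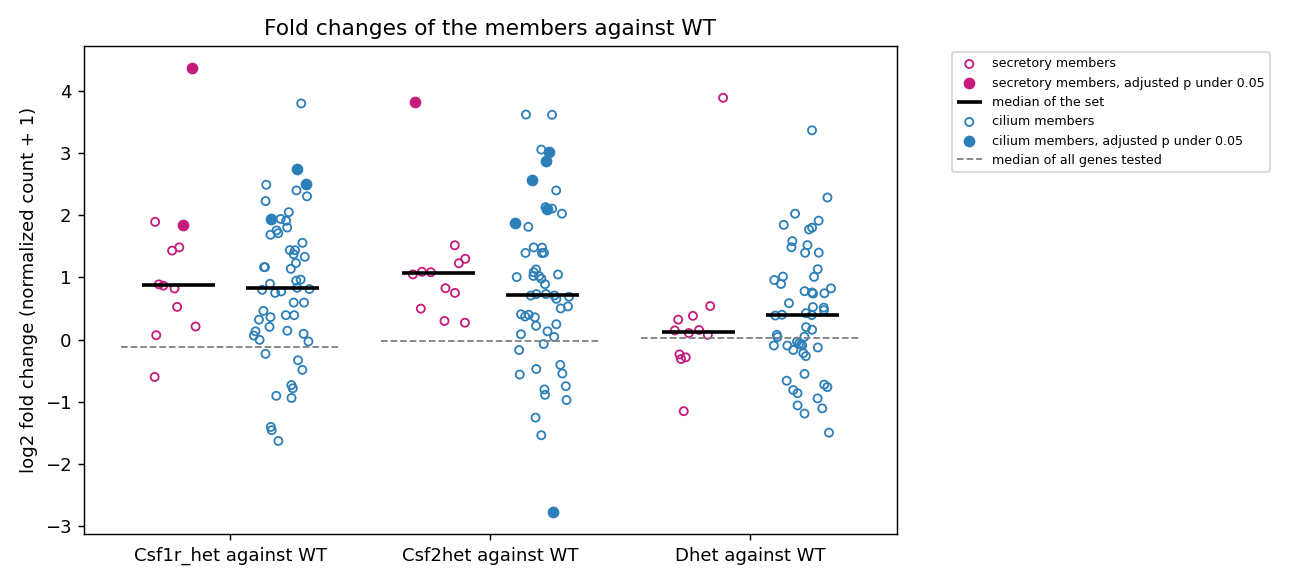
Log2 fold changes against WT of the 12 secretory and 56 cilium members for Csf1r_het, Csf2het and Dhet. Filled points passed a limma adjusted p of 0.05, black bars are set medians and dashed lines the medians of all tested genes. Both sets sit above the dashed line in the single heterozygotes, with secretory medians of 0.88 and 1.07, and lie closer to it in Dhet, where the secretory median was 0.13 and the cilium median 0.40.

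Within the cilium genes the medians of the sub-groups ran from low to high without a test between them. The 30 genes of the axoneme and of motile cilia had medians of 0.89 in Csf1r_het, 0.95 in Csf2het and 0.49 in Dhet. The 14 intraflagellar transport genes had 0.68, 0.52 and 0.41, and the 5 BBSome genes 0.14, 0.69 and -0.66. The 4 genes of the transition zone and basal body had 1.01, 0.62 and 0.16. These 4 include Fam92a, listed for its rise, so nothing is read from their medians. No medians are given for the remaining 3 cilium genes, Pifo, Meig1 and Ttll4, all listed for their rise. The axoneme group includes Dnah2os, an RNA from the strand opposite to Dnah2. Dnah2os had 22.4, 0 and 100 normalized counts in Csf1r_het and at most 5.74 in libraries of the other groups. It thus passed the filter on low values only through Csf1r_het, and its rise there is not a finding. The axoneme group also includes the near copies Rsph3a and Rsph3b, whose reads may be split between them. Taking the median log2 level of each set in a library, the secretory set stood above the cilium set by 4.20 to 4.69 in Csf1r_het, 4.28 to 4.60 in Csf2het, 3.67 and 4.06 in Dhet, and 3.77 to 4.64 in WT. Both Dhet libraries lay below all single-heterozygote libraries in this distance, while every heterozygous group overlapped WT.

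Dhet was also set against each single heterozygote. Limma called 0 members in Dhet against Csf1r_het, where 0.00756% of all genes were called in either direction, with 7 members and 1390 of all 13223 genes at an unadjusted p under 0.05. DESeq2 called 4 lower there, Ttr, Folr1, Dynlrb2 and Rsph9, against 63 of all genes lower and 28 higher. EdgeR called 0 members there, against 0 of all genes lower and 2 higher. In Dhet against Csf2het limma called 0, where 0.0227% of all genes were called in either direction. At an unadjusted p under 0.05 limma counted 8 members there and 1083 of all genes. EdgeR called 0 members, against 0 of all genes lower and 2 higher. DESeq2 called 2 lower, Dynlrb2 and Prlr, against 39 of all genes lower and 113 higher. The median log2 fold change of the secretory members was -0.93 against Csf1r_het and -0.86 against Csf2het, and that of the cilium members -0.41 and -0.52, with 0.10 and 0.03 over all genes.

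The interaction asks whether losing both copies gave the sum of the single losses on the log2 scale (Dhet minus Csf1r_het minus Csf2het plus WT). It was negative and past the test in 5 members, where 0.643% of all genes were: Folr1, Dynlrb2, Rsph9 and 2 genes listed for their rise, Pifo and Fam92a. The interaction was -3.84 ± 0.61 for Dynlrb2 (SE, limma adjusted p = 0.00988), -3.41 ± 0.73 for Rsph9 (0.0332) and -2.99 ± 0.61 for Folr1 (0.0275). Ttr had a similar size, -3.00 ± 1.61, that did not pass in limma (adjusted p = 0.349) or edgeR (0.104) and passed in DESeq2 (0.000255). Prlr, at -2.28 ± 0.54, missed the threshold (limma adjusted p = 0.0505). The set medians were -1.96 for the secretory and -1.40 for the cilium members, with 0.15 over all genes, and the limma count at an unadjusted p under 0.05 was 21, against 2385 of all genes.

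Of the 5 interaction calls, that of Dynlrb2 was kept in 10 of 11 fits that left out a library, and was lost without Dhet replicate 1 (adjusted p = 0.0585). The call of Folr1 was kept in 5 of 11 and that of Rsph9 in 4 of 11, with interactions of -3.42 to -2.55 and -3.96 to -2.86. The count of 5 became 0 without Dhet replicate 1, and 1 without Csf1r_het replicate 1, Csf1r_het replicate 3, Csf2het replicate 1 or Csf2het replicate 2. It was 2 without Csf2het replicate 3 or WT replicate 1, and 8 without WT replicate 2. Scaling without haemoglobin genes left 1, Dynlrb2 (adjusted p = 0.0335). EdgeR called 5 members lower, against 82 of all genes lower and 126 higher. DESeq2 called 13 members lower and 1 higher, Cfap43, against 386 of all genes lower and 522 higher.

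The level of Ttr was followed library by library by a few cilium genes. Over 11 libraries, Pearson's r with Ttr on log2 values was 0.968 for Dynlrb2 (permutation p = 1e-05, the smallest that 100000 resamples can give, adjusted p = 0.0364 over the 13222 other tested genes). Spearman's rho was 0.955 (permutation p = 7e-05, adjusted p = 0.0626). Leaving out the 2 libraries farthest from the median of Ttr, Dhet replicate 1 and WT replicate 1, gave r = 0.945, and deviations from the group means gave r = 0.931. Ift20 (r = 0.901, permutation p = 0.00032, adjusted p = 0.0481; rho = 0.855, p = 0.00147, adjusted p = 0.0977) and Cfap126, a basal body positioning protein (r = 0.875, permutation p = 0.00013, adjusted p = 0.0374; rho = 0.945, p = 2e-05, adjusted p = 0.0378), also passed on Pearson's r. They were named after their values were seen. Without the 2 libraries, r was 0.836 for Ift20 and 0.896 for Cfap126, and within groups 0.894 and 0.753. These 3 of 67 members (4.48%) compare with 0.688% of all genes, and with the 9 remaining libraries 0 members passed the adjustment.

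No secretory member passed with Ttr on either measure, out of 11. For Folr1 r was 0.693 and rho 0.809 (permutation p = 0.0191 and 0.00375, adjusted p = 0.184 and 0.119), with r = 0.653 without the 2 libraries and -0.20 within groups. Kl had r = 0.201 (permutation p = 0.572, adjusted p = 0.803) and rho = 0.209 (p = 0.541, adjusted p = 0.762), with r = 0.203 without the 2 libraries. Across the 67 members the median r was 0.236 for cilium and 0.348 for secretory genes, against -0.069 over all other genes, and on deviations from the group means it was 0.09 for cilium and -0.20 for secretory genes. The libraries share their scaling, and WT replicate 2 was high in Ttr and low in Folr1 and Kl.

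**Figure D4:**
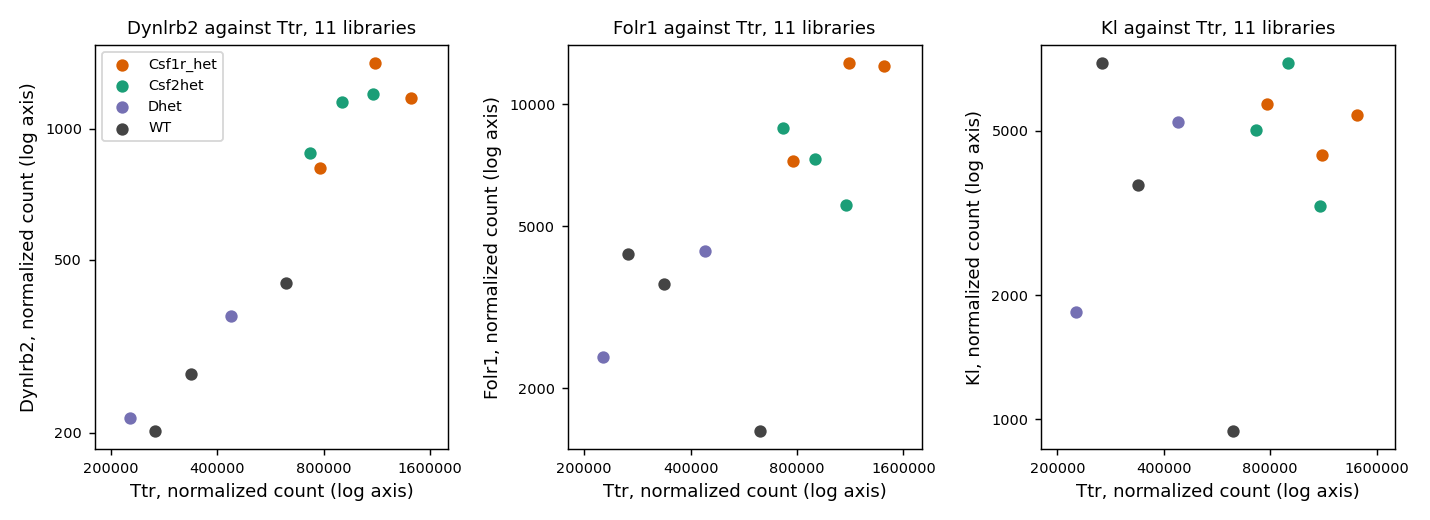
Normalized counts of Dynlrb2, Folr1 and Kl against those of Ttr in the 11 libraries (log axes), coloured by group. Dynlrb2 followed Ttr in all groups (r = 0.968), while in the Folr1 and Kl panels WT replicate 2, at 627562 normalized counts of Ttr, lies lowest.

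Transcript length moved with these differences. Over the 68 members, Spearman's rho between the longest annotated transcript and the log2 fold change was -0.43 in Csf1r_het, -0.37 in Csf2het, -0.09 in Dhet and 0.48 for the interaction, against -0.19, -0.11, -0.01 and 0.19 over all tested genes. Members of at most 2808 bases, the median length, gave median log2 fold changes of 1.33 (Csf1r_het) and 1.11 (Csf2het), and longer members 0.57 and 0.58. Dynlrb2, at 527 bases, Pifo and Rsph9 are short, while Ttll4, at 10019 bases, and Cfap43, at 5968, are long. The length also moved with the relation to Ttr, with rho = -0.43 between length and r over 67 members.

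Outside the members the same measure varied by library. Genes of at most 1000 bases stood above genes of more than 5000 bases by 0.60, 0.02 and 0.62 in Csf1r_het, -0.06, -0.03 and 0.49 in Csf2het, -0.59 and -0.28 in Dhet, and -0.69, 0.82 and -0.66 in WT (difference of median log2 deviations from the mean over libraries). WT replicate 2, the WT library highest in Ttr and Dynlrb2, was thus the highest of all 11, and the other WT and both Dhet libraries were the lowest. With each library's trend on length removed, an alternative added after seeing the data, the count of called members was 2 in Csf1r_het (Fam92a and Sbspon), 5 in Csf2het, 0 in Dhet and 2 for the interaction (Dynlrb2 and Fam92a). The calls of Dynlrb2 and Folr1 in Csf1r_het were lost and the set medians stayed, at 1.04, 0.99 and 0.12 for secretory and 0.80, 0.84 and 0.34 for cilium members. The part of length in the results was not tested further.

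**Figure D5:**
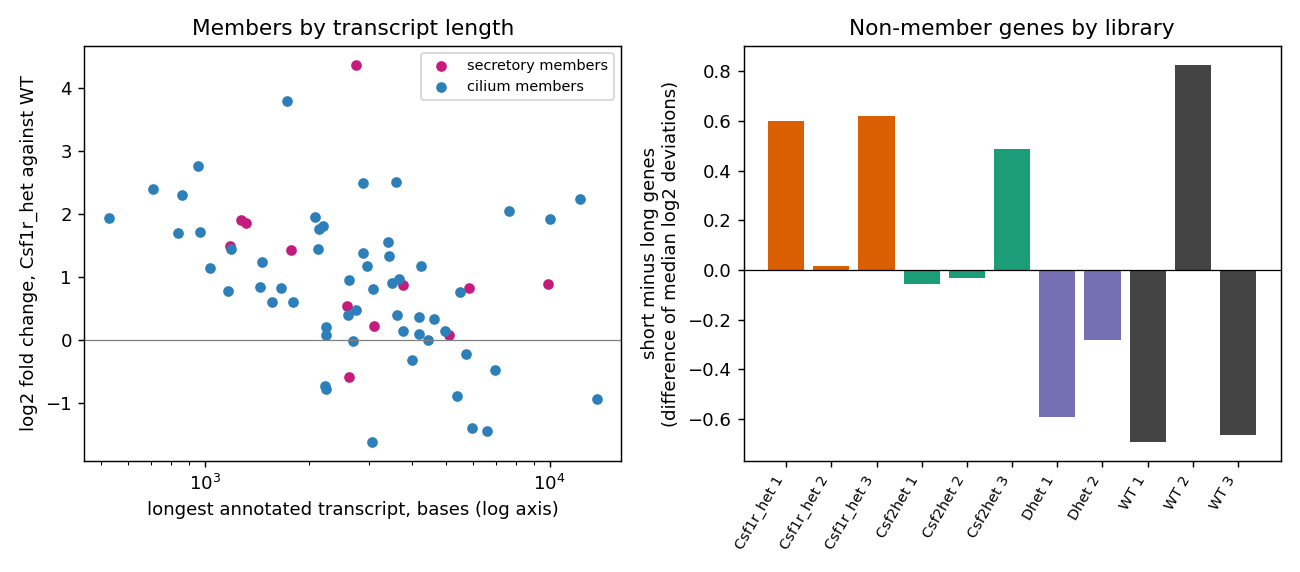
Left, log2 fold change for Csf1r_het against WT of each member by the length of its longest annotated transcript (log axis). Right, the difference in median log2 deviation between short and long genes in each library, which runs from -0.69 in WT replicate 1 to 0.82 in WT replicate 2.

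Other genes of the choroid plexus and of cilia, from lists that do not overlap the members, were counted in the same fit. Of 39 further choroid plexus genes 37 were measured, and those that rose in both single heterozygotes included Calml4, a calmodulin-like protein, and 1500015O10Rik. Limma called 3 of the 37 higher and 0 lower in each single heterozygote. Of all genes, 0.431% were called higher in Csf1r_het and 0.809% in Csf2het. Calml4 had 4966, 3894 and 5369 normalized counts in Csf1r_het, 3835, 4019 and 4543 in Csf2het, 1444 and 2624 in Dhet, and 1006, 1160 and 1333 in WT. Every heterozygous library was above every WT library, and its log2 fold change was 2.02 ± 0.29 in Csf1r_het (SE, limma adjusted p = 0.0109) and 1.83 ± 0.29 in Csf2het (0.00433). Scaling without haemoglobin genes left 0 of the 37 called in Csf1r_het, 2 in Csf2het and 2 for the interaction. A negative interaction passed the test in 4 of the list, against 0.643% of all genes. These included Calml4, 1500015O10Rik and Igf2, a growth factor that the plexus secretes. Median log2 fold changes of the 37 were 0.91 in Csf1r_het, 0.91 in Csf2het and 0.23 in Dhet. In Dhet against WT limma called 0 and DESeq2 called 2 lower, against 276 of all genes lower. The lowest limma p there went to Ace (-2.47 ± 0.54, adjusted p = 0.0816) and Slc12a2 (-1.30 ± 0.33, 0.152), both below WT. Ace averaged 2642 normalized counts in Csf1r_het, 2052 in Csf2het, 1129 in Dhet and 6892 in WT.

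Of 67 further motile cilium genes 38 were measured, with medians of 1.02 in Csf1r_het, 1.29 in Csf2het and 0.72 in Dhet, and 0 rose. Tppp3, a microtubule-bundling protein, had 2133, 1630 and 1098 normalized counts in Csf1r_het, 459, 458 and 895 in Csf2het, 265 and 354 in Dhet, and 5887, 7793 and 1987 in WT. It fell by 2.97 ± 0.49 on the log2 scale in Csf2het (limma adjusted p = 0.00501), and it fell by 3.87 ± 0.54 in Dhet (0.0121). Morn2 passed for the interaction, at -2.84 ± 0.63 (adjusted p = 0.0401). Of 40 further genes of the primary cilium 30 were measured, with 0 called against WT, medians of 0.59, 0.68 and 0.19, and a negative interaction for Arl3, a small GTPase of ciliary cargo release, at -2.72 ± 0.57 (adjusted p = 0.0301). The interaction calls of Morn2 and Arl3 were lost with scaling without haemoglobin genes.

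Markers of other cells moved in the same libraries. The 10 monocyte markers gave median log2 fold changes of -1.50 for Csf1r_het, -3.26 in Csf2het and -1.58 in Dhet, with 2, 9 and 2 called lower (0, 8 and 1 called with scaling without haemoglobin genes) and summed levels of 52803 to 66058 normalized counts in Csf1r_het, 14165 to 21358 in Csf2het, 63411 to 73725 in Dhet and 81960 to 256287 in WT. Of the 8 microglial markers, Siglech, P2ry12 and Sall1 rose in Csf2het, where 0 were called with scaling without haemoglobin genes, and the list's median was 0.78 in Csf1r_het, 1.29 in Csf2het and 0.87 in Dhet. That list includes Csf1r, of which Csf1r_het and Dhet mice lack 1 copy. Its log2 fold change was -1.29 ± 0.45 in Csf1r_het against WT (limma adjusted p = 0.184). Of 10 ependymal markers 7 were measured, including Foxj1, and their summed level was 3141 to 5373 in Csf1r_het, 2048 to 3388 in Csf2het, 1899 to 2831 in Dhet and 5782 to 8845 in WT, with Dhet replicate 1 the single library with a marker at 0. Tppp3 is one of the 7, and the median log2 fold change of the list had the other direction from its sum, at 0.95 in Csf1r_het, 1.40 in Csf2het and 0.57 in Dhet. Mia, a small secreted protein on that list, rose in Csf2het by a log2 fold change of 1.97 ± 0.49 (limma adjusted p = 0.0434), and had an interaction of -3.52 ± 0.73 (0.0298), both lost with scaling without haemoglobin genes. Neuronal markers, 6 of 9 measured, had medians of 2.13, 1.0 and 1.75 with 0 called, and astrocyte markers, 8 of 9, had 0.86, 1.30 and 1.03 with 0 called (limma, with 2 neuronal markers at an unadjusted p under 0.05 in Csf1r_het). For the interaction, 5 of the 10 monocyte markers passed upward (list median 3.14), against 1.2% of all genes. Of 5 border macrophage markers measured, 2 were called lower in Csf2het, against 2.84% of all genes, and 2 passed upward for the interaction. Oligodendrocyte, endothelial and erythroid markers had 0 called by limma against WT or for the interaction, with an oligodendrocyte median of 1.59 in Dhet. The part of these cells in the members' differences was not tested.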

How the data were processed

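Kallisto 0.43.1, the mm10 build and DESeq2 are named for these libraries, per the submitters' processing notes, without a version of DESeq2. The table deposited by the authors holds signal values, normalized counts with 1 column for each library. All values were whole multiples of 1 step per library (100% within 0.02 reads), which gave the reads and depths above. Genes with a mean of at least 10 were tested (1516 were left out). Limma 3.58.1 (R 4.3.3) with a trended prior was fitted on log2(value + 1) over all 4 groups without covariates, with Benjamini-Hochberg adjustment over all tested genes of a contrast at 0.05. The count tests edgeR 4.0.16 (quasi-likelihood) and DESeq2 1.42.0 ran on the recovered reads as alternatives. A called gene is one with an adjusted p under 0.05. P-values measure the spread between these libraries, and the labels do not say that each came from a separate mouse. The limma fit was tested on simulated data.

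The members and the gene lists were chosen with earlier results of these data known. Sbspon, Pifo, Fam92a, Meig1 and Ttll4 had been picked for their rise. Named genes were all secretory members, 6 cilium members taken by name, every called member, and the 3 others with the lowest p in each comparison with WT. From other lists, genes called against WT or for the interaction were named, as were Ace and Slc12a2, and those of cell marker lists mostly counted. One further choroid plexus gene is not reported here. Correlations used 100000 permutations and were adjusted over all tested genes in place of the members alone, as had been planned. Transcript lengths are those of the longest transcript in GENCODE vM21, known for 99.9% of tested genes. Coordinates of genes are those of the deposited table. Alternatives were the pseudocount, the filter on low values, library scaling, both count tests, the groups in the fit, a replicate block, age, each library left out, and the length trend.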

Additional observations from a re-analysis of the deposited data

Results flagged for a closer look

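Dynlrb2, Rsph9, Folr1, Pifo and Fam92a stand out because the effect of losing a Csf2 copy differed between Csf1r+/- and Csf1r+/+ libraries by the test of the interaction. The interaction was -3.84 for Dynlrb2, -3.41 for Rsph9, -2.99 for Folr1, -3.52 for Pifo and -3.20 for Fam92a on the log2 scale. Pifo and Fam92a had been listed for their rise, so their values are a description. No group had enough libraries for a check of single outlying libraries.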

How the results depend on the processing

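Set medians moved by less than 1 SD of the set's median log2 level over the WT libraries under every alternative tried. That yardstick is wide because of WT replicate 2. Its secretory median was 10.13, against 11.63 and 11.55 in WT replicates 1 and 3. The spread within the other groups was not used. Leaving out 1 library gave secretory medians of 0.47 to 1.24 in Csf1r_het, 0.68 to 1.23 in Csf2het and -0.54 to 0.73 in Dhet, and cilium medians of 0.63 to 1.16, 0.67 to 0.90 and -0.02 to 0.71. The direction of the Dhet medians thus changed with the library left out.

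Counts of called members were less stable. From 5 in Csf1r_het, 7 in Csf2het and 5 for the interaction, scaling without haemoglobin genes gave 0, 2 and 1, edgeR 3, 5 and 5, and DESeq2 12, 11 and 14. DESeq2 also called 1 in Dhet against WT, 4 in Dhet against Csf1r_het and 2 in Dhet against Csf2het, where limma called 0. With only the compared groups in the fit the counts were 0 in Csf1r_het and 1 in Csf2het, and with age as a covariate 0 in Csf1r_het. Removing the length trend gave 2 in Csf1r_het and 2 for the interaction. Without WT replicate 2 and Csf1r_het replicate 2 together, 9 members were called in Csf2het, 1 in Dhet against Csf2het and 13 for the interaction. Leaving out 1 library gave 0 to 5 calls in Csf1r_het, 0 to 8 in Csf2het, 0 to 0 in each Dhet comparison and 0 to 8 for the interaction. Without the 2 libraries farthest in Ttr, 0 members in place of 3 passed the correlation test. Of the values for single called genes under alternatives, 224 kept the call, 179 kept the direction and lost it, and none reversed. The cause was not tested. Fits with fewer libraries or groups also leave fewer degrees of freedom, and the part of that was not tested either.

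The replicate numbers did not pair libraries: 15 same-numbered pairs correlated at -0.21 to 0.06 in their deviations from group means. With a replicate block the counts were 0 in Csf1r_het, 1 in Csf2het and 0 for the interaction. Groups held 2 or 3 libraries of at least 21037819 reads, and members at 0 in a library are below what its depth can show.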
